A study of Drosophila melanogaster with 4 samples.

Results

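The GATA factor genes *pnr* (*pannier*), *srp* (*serpent*) and *grn* (*grain*, also *GATAc*), together with *ush* (*u-shaped*), which encodes a partner of GATA proteins, were examined for occupancy by the co-activator CBP in *Drosophila* embryos. The members are all CBP regions that overlap 3 windows on release 5 of the genome: 0.5 to 0.53 Mb on 2L for *ush*, 3.99 to 4.05 Mb on 3R for *grn*, and 11.78 to 11.9 Mb on 3R for *pnr* and *srp*. They number 20 of 1939 regions in gd7 embryos and 13 of 3013 regions in wild-type embryos. The chromatin came from embryos aged 2 to 4 hours, precipitated with an antibody to CBP and sequenced (ChIP-seq). They were laid by gd7 homozygous mothers, so that the embryos lack Dorsal in their nuclei and consist of presumptive dorsal ectoderm, or by w1118 flies, which served as wild-type. There was 1 CBP library and 1 input library per genotype, and each CBP library was a pool of several immunoprecipitations. No difference between the genotypes in these lists therefore has a replicate check, no p-value is given, and intervals of shares cover counting error alone. Apart from the lists, the paper measured CBP by ChIP-qPCR, on biological replicates at *ush*. It reported higher occupancy in gd7 embryos at *ush* and at *pnr*. The lists hold no read counts, so the depth behind a single value is unknown. They also hold no expression values, so the genotype labels could not be checked against the level of a gene.

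GATA factors are zinc finger proteins that bind DNA sites built around the letters GATA. In the fly embryo, *pnr* acts in the dorsal ectoderm, *srp* in blood cell, fat body and endoderm precursors, and *grn* in the developing spiracles and nervous system. The Ush protein is a Friend-of-GATA protein that binds Pnr and modulates its activity, and both *ush* and *pnr* respond to Dpp, the TGF-ß ligand of the dorsal ectoderm. The paper also counts *grn*, as *GATAc*, among the Dpp-target genes, and reported results there similar to those at *ush*, with more CBP in gd7 embryos. CBP acetylates histones and is found at enhancers and promoters, which makes its occupancy a guide to regulatory DNA. In whole embryos, a higher value can come from more cells that carry CBP at a site or from more CBP per cell, and these cannot be told apart.

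A region is a stretch where the log2 ratio of ChIP over input lies among the 5% highest of its library, and its value is the log2 enrichment around its peak. The lowest listed value was 1.93 in gd7 and 1.88 in wild-type. A wild-type region was called kept when a gd7 region overlapped it by at least 1 bp, and lost otherwise. A gd7 region with no overlapping wild-type region was called gained. Signal below the cut-off, or in shorter stretches, is not listed, so a lost region may still hold some CBP in gd7 embryos and a gained region some in wild-type embryos.

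CBP regions at the GATA and *ush* loci were more numerous and longer in gd7 embryos, but the individual sites went in both directions. Their median length was 577.5 bp in gd7 and 385 bp in wild-type. Over the whole lists gd7 regions were longer too, with medians of 455 bp in gd7 and 350 bp in wild-type. Across the 3 windows, regions covered 14980 bp in gd7 and 6195 bp in wild-type, a ratio of 2.42, while over the whole lists the ratio was 0.817. The mean value of the regions was 2.73 in gd7 and 2.67 in wild-type, each over its own set of regions. By locus the means moved in different directions. They were 2.64 in gd7 and 2.12 in wild-type at *ush*, and 2.97 in gd7 and 3.41 in wild-type at *grn*. In the *pnr*/*srp* window they were 2.69 in gd7 and 2.66 in wild-type. Of the 20 gd7 regions, 11 were gained (55.0%, 95% Wilson interval 34.2 to 74.2%), next to 37.3% of the whole gd7 list. Of the 13 wild-type regions, 9 were kept (69.2%, interval 42.4 to 87.3%) and 4 were lost, next to 40.4% kept and 59.6% lost over the whole wild-type list. The interval of the gained share includes the share of the whole gd7 list. The gained share was higher, at the loci and over the whole lists, in settings with limits on value, rank or length. It was 84.6%, next to 52.1% over the whole lists, when regions below 2.5 were dropped from each list. It was 85.0%, next to 50.5%, with the wild-type list cut to its 1939 strongest regions. It was 68.8%, next to 44.2%, among regions of at least 350 bp. These shares have no interval, and some of these gained regions overlap a wild-type region that the setting left out. The interval of the kept share begins just above the share of the whole wild-type list. Both intervals treat neighbouring regions as independent draws, so neither is a test against the whole list. When regions below 2.5 were dropped from each list, 2 of 5 wild-type regions were kept at the loci, next to 37.9% of all such regions. The region with 3.26 in wild-type then counted as lost, because its gd7 region of 2.01 was dropped. With the wild-type list alone cut to its 1939 strongest regions, 3 of 5 were kept, next to 48.4%. With 5 regions, these shares do not settle whether the higher kept share rests on weak regions.

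**Figure D1:**
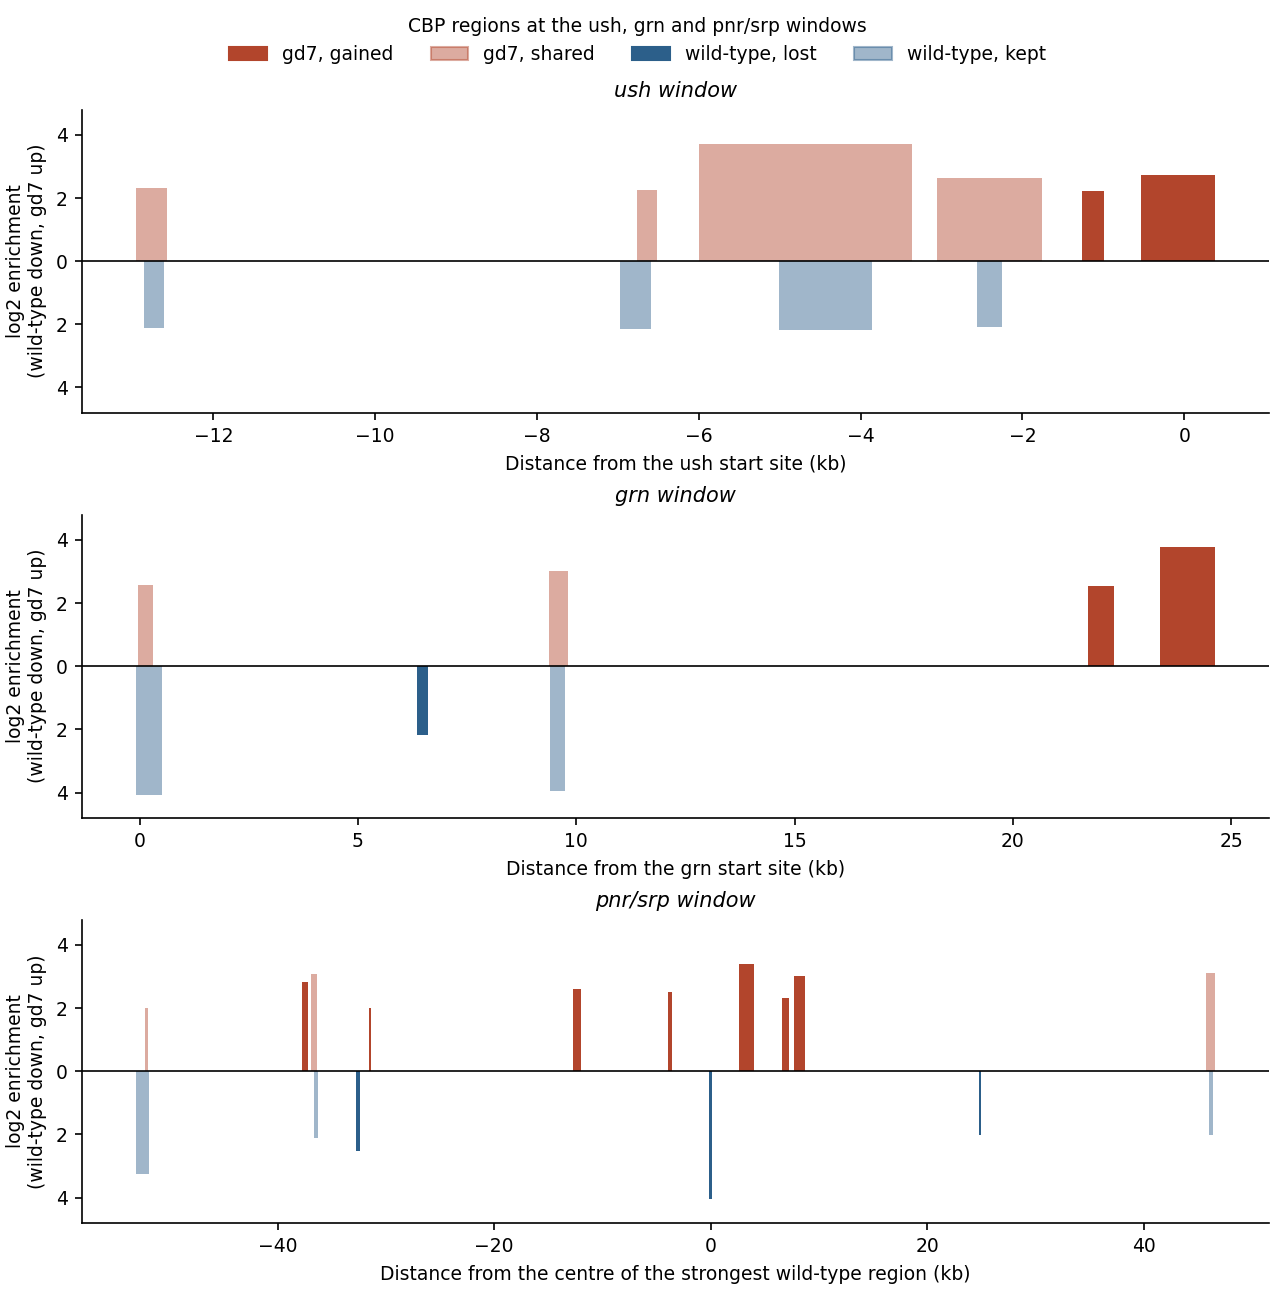
CBP regions of the *ush*, *grn* and *pnr*/*srp* windows, drawn to scale as bars whose width is the length of the region and whose height is its log2 enrichment, with gd7 above the line and wild-type below. The horizontal axis is the distance in kb from a start site of *ush*, from a start site of *grn*, or from the centre of the strongest wild-type region of the *pnr*/*srp* window. All 4 wild-type regions at *ush* face a gd7 region, whereas the wild-type region of 4.05 in the *pnr*/*srp* window faces none.

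At *ush*, all 4 wild-type regions of the window were kept and all 4 were higher in gd7. Among regions of at least 350 bp, 1 was kept and 1 lost. The lost one, from 516495 to 516880, overlaps a gd7 region of 245 bp that the length limit left out. A window wider by 10000 bp on each side took in a kept region nearest to *cbt* that was lower in gd7. That region had 2.74 in gd7 and 4.26 in wild-type. The strongest gd7 region lay on 2L from 517475 to 520100, with its centre 4767 bp from a start site of *ush*. Its value was 3.70 in gd7, against 2.17 in the wild-type region from 518455 to 519610. This difference of 1.53, or 2.88-fold, was the 19th largest increase among the 1217 kept regions. The site moved to rank 84 of 1939 in the gd7 list, against rank 2210 of 3013 in the wild-type list. The gd7 region was also the 20th longest of its list, with 2625 bp against 1155 bp in wild-type.

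The remaining kept regions at *ush* differed by less than 2-fold. The one centred 2282 bp from the start site had 2.62 in gd7 and 2.07 in wild-type, and it measured 1295 bp in gd7 and 315 bp in wild-type. Farther away, at 6657 bp, the value was 2.26 in gd7 and 2.14 in wild-type. The farthest, 12747 bp away, had 2.32 in gd7 and 2.11 in wild-type, with its centre at the same position in both lists. The difference was thus larger at the 2 sites nearest to the start site than at the 2 farther ones.

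Gained regions at *ush* lay between the kept ones and the start site. The first, from 522935 to 523845, spanned the start site itself, with its centre 287 bp away and a value of 2.73. The second, from 522200 to 522480, was 1127 bp away with 2.23. No wild-type region was listed within 2 kb of this start site, the nearest being centred 2317 bp from it. In gd7 embryos, 4 regions followed each other from 517475 to 523845, where wild-type embryos had 2.

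Wild-type regions as weak as those of *ush* were kept in a minority of cases over the genome, and those that were kept were mostly higher in gd7. The 4 wild-type values at *ush* spanned only 2.07 to 2.17, close to the lowest listed value. Of 314 wild-type regions in this range over the genome, the members included, 108 (34.4%) were kept. Of these 108, 95 (88.0%) were higher in gd7 and 20 (18.5%) were more than 2-fold higher. The lowest listed gd7 value bounds how much lower a kept region of this strength can be, so a higher gd7 value is common among them, and the 1 region past 2-fold among 4 is not far from their share. Seen from gd7, 78 regions with a wild-type partner were at least as strong as the strongest one at *ush*, and 40 of them (51.3%) were more than 2-fold higher in gd7. Picking regions by a high gd7 value by itself favours a lower wild-type value.

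At *grn*, the strong wild-type regions were lower in gd7, while a strong gd7 region was listed farther away. The region at the start site, from 4007080 to 4007675 on 3R in wild-type, had 2.57 in gd7 and 4.09 in wild-type. Its difference of -1.52, or 2.88-fold lower in gd7, was the 12th largest decrease among all kept regions. Its centre lay 161 bp from the start site in gd7 and 231 bp in wild-type. The site stood near the middle of the gd7 list, at rank 926, against rank 31 in the wild-type list.

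The second kept region at *grn*, 9576 bp from the start site, had 3.01 in gd7 and 3.95 in wild-type. Its difference of -0.95 fell just short of 2-fold, a limit it passed once the median difference of all kept regions was subtracted, and the centre was at the same position in both lists. Between these regions a wild-type region with 2.17, from 4013520 to 4013765, was lost. It stood only 0.24 above the lowest gd7 value, close to the limit of what the gd7 list can hold.

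Both gained regions at *grn* lay beyond the kept ones. The stronger, from 4030530 to 4031790, had a value of 3.76 in gd7, which was higher than that of any other gd7 region of the 3 windows. It was centred 24.3 kb from the *grn* start site and 13.6 kb from the edge of the nearest wild-type region. It was the 3rd strongest of the 724 gained regions of the genome. Of the 66 gd7 regions at least as strong, only 3 (4.55%) were gained. Its value stood 1.88 above the lowest listed wild-type value. The other gained region, from 4028885 to 4029480, had 2.54 and was 21.9 kb from the start site. Whether *grn* has the nearest start site to these regions was not determined here, since a release 5 annotation was not used.

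Lower gd7 values were the rule for wild-type regions as strong as those of *grn*. Of the 54 wild-type regions at least as strong as the second one at *grn*, 49 (90.7%) were kept. All 49 (100.0%) were lower in gd7, and 28 of them (57.1%) more than 2-fold. At *grn* the count was 1 of 2, or 2 of 2 after that subtraction. These regions were picked by a high wild-type value, which by itself favours a lower gd7 value, so the direction at *grn* does not set the locus apart.

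The *pnr*/*srp* window held the largest number of members, 10 in gd7 and 6 in wild-type. In the gene order of release 6, *srp*, *GATAe* and *pnr* follow each other directly, with *Hel89B* before *srp* and *Jhbp4* after *pnr*, so the window also holds *GATAe*, a further GATA factor gene, which acts in the gut endoderm. Which of these genes a region lies nearest to was not determined here, and the regions are given by position. Of the 10 gd7 regions 7 were gained, and of the 6 wild-type regions 3 were kept and 3 lost.

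The strongest wild-type region of the window was lost. At 4.05 it held rank 37 of 3013 in the wild-type list, on 3R between 11851490 and 11851805. No gd7 region was listed within 2 kb of it. Among the 1796 lost regions of the genome it was the 2nd strongest. Of the 37 wild-type regions with at least this value, 2 (5.41%) were lost. Its value stood 2.12 above the lowest listed gd7 value. It measured only 315 bp, and 7 of the 54 wild-type regions of at least 3.95 (13.0%) measured 350 bp or less, next to a median of 542.5 bp.

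Around this lost region, gd7 embryos showed a group of 5 gained regions. They lay between 11838960 and 11860415, a span of 21.5 kb in which gd7 regions covered 4235 bp and the wild-type region 315 bp. The strongest, from 11854255 to 11855690, had 3.41 in gd7 and was the 17th strongest gained region of the genome. Its near edge was 2450 bp from the lost region. Next came a region from 11859330 to 11860415 with 3.03. Of the other 3, the region from 11847745 to 11848095 had 2.497 and lay 3395 bp from the lost region on its other side. The region from 11838960 to 11839730 had 2.60, and that from 11858280 to 11858875 had 2.31. Both of the strongest were more than 1 kb long, with 1435 bp and 1085 bp.

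Kept regions of the *pnr*/*srp* window went both ways. From 11798570 to 11799760, the wild-type region of 1190 bp had 2.01 in gd7 and 3.26 in wild-type, a difference of -1.25. Only 245 bp of it were listed in gd7. In contrast, the region from 11814985 to 11815370 had 3.09 in gd7 and 2.11 in wild-type, a difference of 0.98, just short of 2-fold. The region from 11897725 to 11898110, near the right end of the window, had 3.13 in gd7 and 2.01 in wild-type, a difference of 1.11, the 102nd largest increase. Since it lies at the end of the window, a gene outside it may be nearer.

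Further regions in 1 list alone stood near the kept region at 11814985. In gd7, a region from 11813935 to 11814425 with 2.84 was gained 560 bp away. The lost wild-type region from 11818905 to 11819290 had 2.53, and 770 bp from its edge gd7 embryos had a gained region with 2.01, from 11820060 to 11820305. The wild-type region from 11876445 to 11876690, with 2.00, was lost with no gd7 region within 16 kb. It was among the weakest of the wild-type list, at rank 2765.

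**Figure D2:**
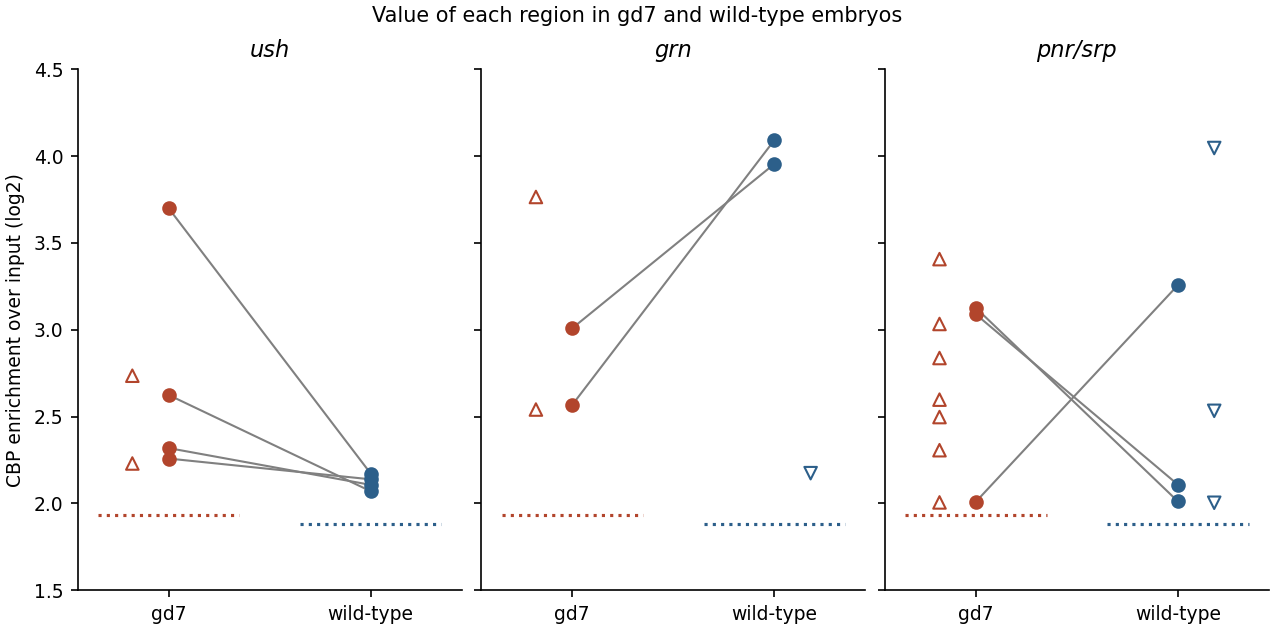
Log2 enrichment of each region, with gd7 at the left and wild-type at the right of each panel. Filled circles joined by a line are the 9 kept regions, open triangles pointing up are gained regions, open triangles pointing down are lost regions, and dotted lines mark the lowest listed value of each list. All 4 lines at *ush* are higher in gd7, both at *grn* are higher in wild-type, and those of *pnr*/*srp* cross.

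Over the 3 windows, 6 of the 9 kept regions had a higher value in gd7 and 3 a lower one, next to 53.2% and 46.8% of all 1217 kept regions. More than 2-fold higher were 2 of 9, at *ush* and in the *pnr*/*srp* window, next to 10.2% of all kept regions. More than 2-fold lower were also 2 of 9, at *grn* and in the *pnr*/*srp* window, next to 5.92%. The median difference of gd7 minus wild-type was 0.38 at *ush* over 4 regions, -1.23 at *grn* over 2 and 0.98 in the *pnr*/*srp* window over 3. Over all kept regions it was 0.06. With so few regions, the 2-fold counts do not set these loci apart from the rest of the lists. Of the regions in 1 list alone, 3 of 11 gained ones exceeded the lowest wild-type value by over 2-fold, next to 12.6% of all gained regions, and 1 of 4 lost ones exceeded the lowest gd7 value by as much, next to 9.47% of all lost regions.

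**Figure D3:**
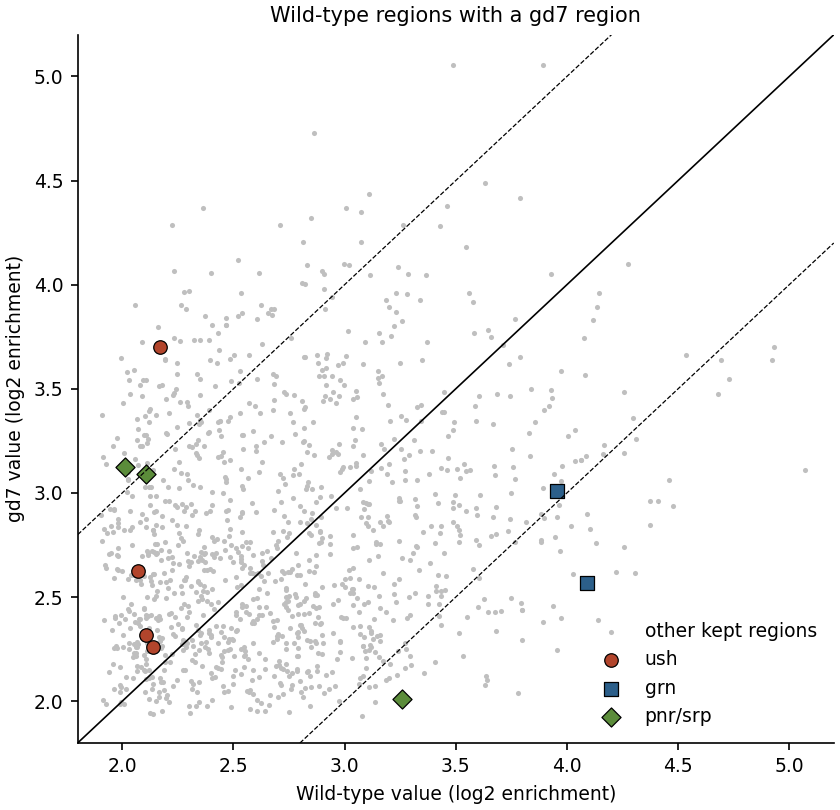
The gd7 value (vertical axis) against the wild-type value (horizontal axis), both in log2 enrichment, for the 1217 wild-type regions with a gd7 region. Coloured symbols are the 9 kept regions of the *ush*, *grn* and *pnr*/*srp* windows, the full line marks equal values and the dashed lines 2-fold differences. The *ush* regions sit at the low wild-type end above the full line and both *grn* regions at the high end below it.

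Kept regions overlap a gd7 region by definition, and their centres also lay close to those of the gd7 regions. For 9 of 9 the centre of the gd7 region lay inside the wild-type region, next to 87.3% over all kept regions, and the centres were 0 to 122 bp apart. The gd7 region was the longer one at 6 of 9, next to 47.1%. Length and value did not always go together. The *ush* region 6657 bp from the start site was higher in gd7 but shorter, with 245 bp in gd7 and 385 bp in wild-type. The *grn* region at 9576 bp was lower in gd7 but longer, with 455 bp in gd7 and 350 bp in wild-type. Regions of 1000 bp or more numbered 5 of 20 in gd7, next to 13.6% of the gd7 list, and 2 of 13 in wild-type, next to 6.8% of the wild-type list.

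CBP regions stood denser in these windows than along their chromosome arms. Per 100 kb there were 9.52 regions in gd7 and 6.19 in wild-type over the 3 windows. Arm 2L had 1.5 in gd7 and 2.32 in wild-type, and arm 3R 1.73 in gd7 and 2.63 in wild-type, between the first and the last listed region. The *ush* window was the densest, with 6 regions in gd7 and 4 in wild-type on 30 kb. The windows were drawn around genes known to hold regions, so the density is a description. In each of the windows the covered length was greater in gd7, by ratios of 2.73 at *ush*, 2.24 at *grn* and 2.27 in the *pnr*/*srp* window. The *pnr*/*srp* window had 6580 bp in gd7 and 2905 bp in wild-type, and *grn* 2660 bp in gd7 and 1190 bp in wild-type.

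**Figure D4:**
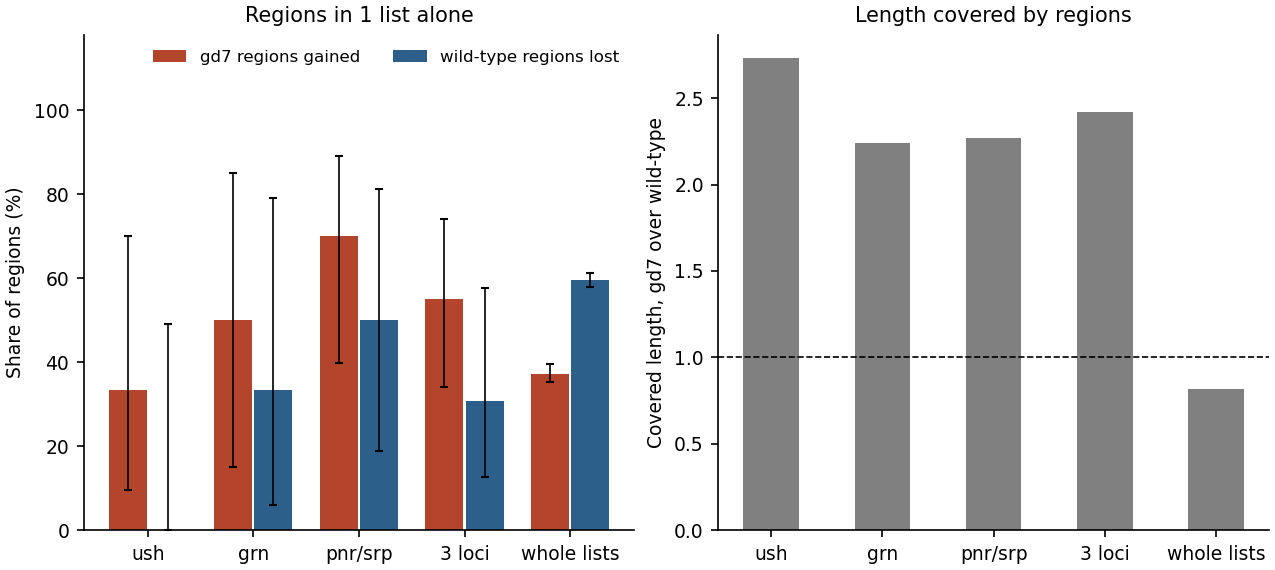
Left, the share of gd7 regions that were gained and of wild-type regions that were lost at each locus, over the 3 loci and over the whole lists, with 95% Wilson intervals for counting error alone. Right, the length covered by gd7 regions over that covered by wild-type regions, with the dashed line at 1. The ratio is above 2 at each locus and 0.817 over the whole lists.

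The GATA loci were set beside other genes of the Dpp pathway and of the dorsal ectoderm and amnioserosa, the tissue that Dpp specifies at the dorsal midline. The nearest gene was known for 1999 of the 3013 wild-type regions, namely all on 2L, 2R and 3L, 298 of 732 on 3R and none on X. Of 42 listed genes, 22 lie on 2L, 2R and 3L, and 17 in all were the nearest gene of such a region, while regions of genes on X and on the rest of 3R could not be counted. Of their 34 regions 25 were kept (73.5%), next to 40.4% of all wild-type regions. Of these 25, 14 were higher and 11 lower in gd7, near the 53.2% and 46.8% of all kept regions. More than 2-fold higher were 6 of 25, next to 10.2%, and more than 2-fold lower 1 of 25, next to 5.92%. At *Egfr* and at *egr*, 1 of these increases had the same gd7 value as a stronger wild-type region beside it. At that stronger region the difference was 0.73 for *Egfr* and 0.49 for *egr*. Over the 25 kept regions the median difference was 0.14. Among ligands and proteins that handle them, *cv-2*, which encodes a BMP-binding protein, had 3.59 in gd7 and 2.05 in wild-type. At *dpp* itself 4 regions were kept, with differences of 0.90, 0.40, -0.11 and -0.15. The largest difference was at a region with 3.34 in gd7 and 2.44 in wild-type. The receptor gene *tkv* had 3.29 in gd7 and 3.83 in wild-type at its stronger region. Among targets, the LIM-homeobox gene *tup* had 3.74 in gd7 and 2.23 in wild-type at a region that was higher in gd7, but 1.96 in gd7 and 2.57 in wild-type at another. The homeobox gene *zen* had 3.32 in gd7 and 2.25 in wild-type. The increases at *cv-2* and *tup*, of 1.54 and 1.51, were of the size of that at *ush*. Beside the decrease at *grn*, the T-box gene *mid* had 2.96 in gd7 and 4.37 in wild-type, a difference of -1.41, and its relative *Doc2* had 3.13 in gd7 and 3.98 in wild-type. Another GATA gene, *GATAd* on 2L, had a single weak wild-type region of 1.98, which was lost.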

How the data were processed

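The authors aligned SOLiD reads to release 5 with Bioscope, formed the log2 ratio of ChIP over input, smoothed it, kept the 5% highest values of each library and joined them into regions, without normalizing the genotypes to each other. The deposited log2 values are this ratio minus a constant. The constant was the median difference to the study's peak table, held for 1999 wild-type and 170 gd7 regions. It was 1.93 in gd7 and 1.88 in wild-type, deviated by at most 5.0e-06, and was added back. That table also gave the nearest gene of these regions, and a start site of *ush* and of *grn* on which 10 and 3 rows agree. Gene order came from RefSeq, release 6. Overlaps (pandas 2.3.3, numpy 2.4.6) were checked with bedtools 2.31.1 and tested on simulated data, Wilson intervals were taken from scipy 1.17.1, and matplotlib 3.10.9 drew the plots. Positions are given as listed, on a grid of 35 bp. The named genes are *pnr*, *srp*, *grn* and *ush*, with every region of their windows, and the 42 genes of a pathway list. Alternatives changed the overlap rule, value and length limits, window edges and scaling. Windows, members and lists were chosen with earlier results of these data known. Sequences were not analysed here.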

Additional observations from a re-analysis of the deposited data

How the results depend on the processing

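The 9 kept regions kept their direction and their side of the 2-fold limit with values as deposited, and their direction with percentile ranks. Values as deposited shift every difference by the same small amount. Each kept region overlapped a single gd7 region, so choosing the gd7 region of longest overlap could not change a difference. With regions below 2.5 dropped from each list, 2 regions were kept (40.0%, next to 37.9% over the whole lists) and 3 lost, none at *ush* among them. Regions then covered 12635 bp in gd7 and 2835 bp in wild-type. The ratio of covered lengths was then 4.46 at the 3 loci and 1.01 over the whole lists. Among as many of the strongest wild-type regions as gd7 regions, 3 were kept, 2 lost and 17 gained, and the ratio was 5.28, next to 1.07. The kept share was 60.0%, next to 48.4% over the whole lists, and the gained share 85.0%, next to 50.5%. Here weak wild-type regions, all 4 at *ush* among them, were not counted. Among regions of at least 350 bp, 5 were kept (62.5%, next to 44.4% over the whole lists) and 3 lost. Some of the lost ones overlap a shorter gd7 region that this limit left out. Without the region at the right end of the *pnr*/*srp* window, an alternative chosen after seeing the data, 1 kept region was more than 2-fold higher in gd7. Centred on the median difference, 3 kept regions were more than 2-fold lower in gd7, 2 of them at *grn*. With a 1.5-fold limit, 2 were lower at *grn* and 2 higher in the *pnr*/*srp* window. Windows widened by 10000 bp gave 2 lost regions at *grn* and, at *ush*, the region of 4.26 in wild-type. With gaps of up to 1000 bp counted as kept, also chosen after seeing the data, *ush* had 1 gained region. No paired analysis was possible because there is 1 library per genotype. Differences of single regions rest on 1 library each, and values below the cut-off are not listed.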
